A study of Mus musculus with 4 samples.

Results

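The Zeb, Snail and Twist genes encode the transcription factors best known for turning epithelial cells into mesenchymal ones. All 7 mouse genes, Zeb1, Zeb2, Snai1, Snai2, Snai3, Twist1 and Twist2, were found by their Ensembl identifiers among the 20296 genes of a table comparing epiblast-like stem cells (EpiLSC) with naive embryonic stem cells (nESC). EpiLSC were collected on day 3 of culture on gelatin in N2B27 medium with activin A at 20 ng/ml and bFGF at 12 ng/ml. The nESC were held in 2i/LIF medium, in which kinase inhibitors and the cytokine LIF maintain the naive state. Each state had 2 samples, 1 of the established line R1 and 1 of E14TG2a (E14), with no transgene or further treatment named. Ribosomal RNA was removed from total RNA before strand-specific sequencing. Each line was sampled 1 time per state, so the p-values measure the spread among these 4 samples, which includes the difference between R1 and E14. State and medium changed together and cannot be told apart.

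ZEB1 and ZEB2 are large zinc finger proteins that bind E-box letters in promoters and recruit corepressors to epithelial genes such as Cdh1, which encodes E-cadherin. The Snail proteins bind the same letters through zinc fingers, whereas TWIST1 and TWIST2 are basic helix-loop-helix proteins that act as dimers with E proteins. In the embryo these factors are known for gastrulation, neural crest and mesoderm, and ZEB proteins and microRNAs of the miR-200 family are known to repress each other.

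The miR-200 family is shown because both Zeb genes hold many copies of the letters its seeds pair with. Mature sequences and positions are from RefSeq (GRCm38.p6), with the seed, bases 2 to 8, in capitals. mmu-miR-141-3p lies at chr6:124717917-124717938 and mmu-miR-200c-3p at chr6:124718324-124718346. mmu-miR-429-3p lies at chr4:156053916-156053937, mmu-miR-200a-3p at chr4:156054911-156054932 and mmu-miR-200b-3p at chr4:156055685-156055706, and all of them are on the minus strand.
mmu-miR-141-3p: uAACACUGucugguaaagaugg
mmu-miR-200a-3p: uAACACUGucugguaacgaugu
mmu-miR-200b-3p: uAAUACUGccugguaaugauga
mmu-miR-200c-3p: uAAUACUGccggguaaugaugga
mmu-miR-429-3p: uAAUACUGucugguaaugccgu
The first pair shares a seed, and the other 3 share another that differs from it by a single letter. The microRNAs themselves and their precursors were not analysed here.

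Letters complementary to these seeds, CAGTGTT and CAGTATT, were counted on the sense strand of the annotated 3′ UTR of each gene's transcript with the longest coding part. Zeb1 held 9 of them in 2401 bases and Zeb2 held 8 in 1450 bases. Of 21007 genes, these included, 2 (0.00952%) held 9 or more, and 8 (0.0381%) held 8 or more. Snai2 held 2 and Snai1 held 1, and 23.7% of genes held at least 1, while Snai3, Twist1 and Twist2 held none. Sites of each seed group are shown for Zeb2, the Zeb gene that rose, with the matching letters in capitals.
Zeb2 site for miR-141 and miR-200a: tgcaaaaattttgtaCAGTGTTaa
Zeb2 site for miR-141 and miR-200a: agtgccatccttgtaCAGTGTTca
Zeb2 site for miR-200b, miR-200c and miR-429: cgcactaccatacatCAGTATTtt
Zeb2 site for miR-200b, miR-200c and miR-429: cgcactacagtgcatCAGTATTac
A match is a description of the letters and not evidence of repression.

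The authors' deposited table gives 1 comparison and no value per sample. Its mean is the average over 4 libraries of whole reads divided by each library's size factor, and its digits were fine enough to solve for those reads. All 12761 genes with a mean of up to 400 had exactly 1 solution, and so did Zeb1, for which 0.1 solutions were expected by chance. In 6537 of these genes with 10 or more reads in each state, the rebuilt ratio lay a median of 0.0036 from the log2 fold change of the authors' deposited table. Libraries were assigned to a state by the sign of the deposited fold change in the 129 to 229 genes seen in each library alone, a sign that was the same for every such gene of a library. They are called a and b within a state by falling size factor, 1.24 and 0.735 in EpiLSC and 1.28 and 0.876 in nESC. Which of them is R1 and which E14 is unknown, and library a of EpiLSC is not tied to library a of nESC. Total reads per sample are unknown. Positive fold changes were taken as higher in EpiLSC because Fgf5 (8.40, SE 0.75) and Otx2 (3.90, SE 0.66) of the epiblast were positive and Zfp42 (-6.22, SE 0.62) and Klf4 (-6.29, SE 0.68) of the naive state negative in log2 units of the authors' deposited table.

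Of the 7 genes, 3 rose in EpiLSC (Zeb2, Snai3 and Twist1), 1 fell (Zeb1), and Snai1, Snai2 and Twist2 did not pass the test. These calls are those of the authors' deposited table (DESeq2 Wald test at a Benjamini-Hochberg adjusted p below 0.05), in which 13.9% of 16361 tested genes were called, 7.67% as risen and 6.23% as fallen. Zeb1 and Zeb2 changed in opposite directions. With 1 library left out, limma on rebuilt reads no longer called Zeb1, Zeb2, Twist1 or, unless it was EpiLSC library b, Snai3, but 3 of these 4 fits called 0 of 8826 genes. In bulk samples, a change in the number of cells that express a gene and a change in RNA per cell cannot be told apart.

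**Figure D1:**
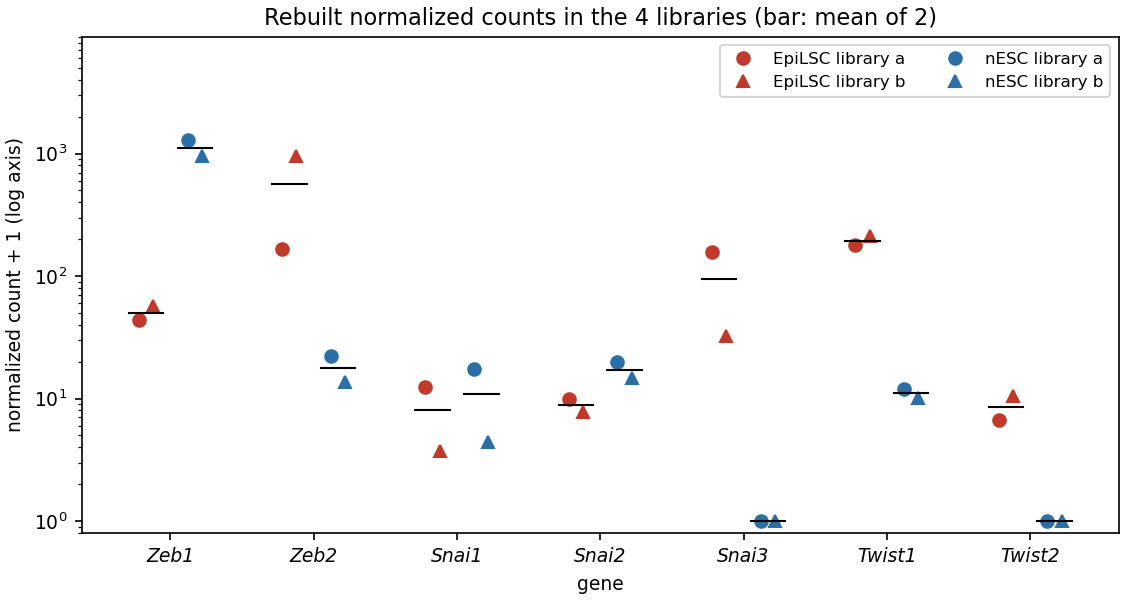
Normalized counts plus 1 (vertical log axis) of the 7 genes in each library, with EpiLSC in red left of nESC in blue, circles for library a, triangles for library b and a bar at the mean of the 2. Zeb1 lies 17.1-fold or more lower in both EpiLSC libraries, Zeb2, Snai3, Twist1 and Twist2 lie higher, and Snai1 overlaps between the states.

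Zeb1 (ENSMUSG00000024238.12), the ZEB repressor that was abundant in naive cells, had 53 and 41 reads in EpiLSC, against 1642 and 835 reads in nESC. After division by size factors these were 42.8 and 55.8 normalized counts in EpiLSC and 1287 and 953 in nESC. Both EpiLSC libraries lay far below both nESC libraries, with a gap of 17.1-fold between the nearest libraries and at most 1.35-fold between the libraries of a state. The log2 fold change was -4.51 (SE 0.67, 95% interval -5.82 to -3.20, adjusted p 1.14e-09, DESeq2 Wald test) in the authors' deposited table. By p it ranked 187 among all tested genes of the authors' deposited table.

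Zeb2 (ENSMUSG00000026872.15), its close relative and also a repressor of Cdh1, had 204 and 702 reads in EpiLSC, against 27 and 11 reads in nESC. The normalized counts were 165 and 955 in EpiLSC and 21.2 and 12.6 in nESC. The states did not overlap, and the nearest libraries lay 7.79-fold apart. The log2 fold change was 5.04 (SE 0.94, 95% interval 3.21 to 6.88, adjusted p 2.66e-06, DESeq2 Wald test) in the authors' deposited table. The size of the rise depended on the EpiLSC library, since these libraries differed 5.80-fold for Zeb2, and 13.5% of 1729 genes of similar mean differed as much. Without EpiLSC library b the log2 difference from rebuilt reads was 3.26, and without library a it was 5.79.

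The pair thus exchanged places between the states. Zeb1 made up 20.6% and 5.52% of the normalized reads of both Zeb genes in the EpiLSC libraries and 98.4% and 98.7% in the nESC libraries. Zeb2 is the longer annotated gene, with 19942 bases of merged exons against 10266 for Zeb1. Per length, Zeb1 made up 33.5% and 10.2% of the pair in EpiLSC and 99.2% and 99.3% in nESC. Summed over both genes, the libraries held 208 and 1011 normalized counts in EpiLSC and 1308 and 966 in nESC, values that overlap. The 95% intervals of the 2 fold changes do not overlap, although their difference was not tested because the table holds no covariance.

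Zeb2os, the antisense transcript that starts beside Zeb2, had 2.42 and 13.6 normalized counts in EpiLSC and 0 reads in both nESC libraries. It did not pass (log2 fold change 5.51, SE 2.73, adjusted p 0.208, DESeq2 Wald test) in the authors' deposited table. The strand setting of the counting is not given in the sources used here, so reads of Zeb2 and Zeb2os cannot be told apart.

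Snai1 (ENSMUSG00000042821.7) encodes the Snail protein needed for gastrulation in the mouse. It had 14 and 2 reads in EpiLSC, against 21 and 3 reads in nESC. The normalized counts of 11.3 and 2.72 in EpiLSC and 16.5 and 3.42 in nESC overlapped, and within each state the libraries differed by more than the states did. Its log2 fold change was -0.49 (SE 1.62, 95% interval -3.67 to 2.69, adjusted p 0.972, DESeq2 Wald test) in the authors' deposited table, an interval too wide to bound the change.

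Snai2 (ENSMUSG00000022676.6), also called Slug and known from neural crest, had 11 and 5 reads in EpiLSC, against 24 and 12 reads in nESC. The normalized counts were 8.88 and 6.80 in EpiLSC and 18.8 and 13.7 in nESC. Both EpiLSC libraries lay below both nESC libraries, by 1.54-fold between the nearest. The test did not pass, at a log2 value of -1.05 (SE 1.28, 95% interval -3.56 to 1.47, adjusted p 0.829, DESeq2 Wald test) in the authors' deposited table.

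Snai3 (ENSMUSG00000006587.5), the third Snail gene of the mouse, had 193 and 23 reads in EpiLSC and 0 reads in both nESC libraries. The normalized counts were 156 and 31.3 in EpiLSC. Set against a floor of 3 reads over both nESC libraries, EpiLSC library a was at least 112-fold higher and library b at least 22.4-fold higher. The authors' deposited table gives Snai3 a log2 value of 9.08 (SE 1.81, adjusted p 1.54e-05, DESeq2 Wald test), whose size depends on how the model treats the zeros. The EpiLSC libraries lay 4.98-fold apart, and 20.9% of 1147 genes of similar mean differed as much.

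Summed over Snai1, Snai2 and Snai3, the libraries held 176 and 40.8 normalized counts in EpiLSC and 35.3 and 17.1 in nESC. In EpiLSC the sum was mostly Snai3, and in nESC it held Snai1 and Snai2 alone.

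Twist1 (ENSMUSG00000035799.5), a factor of cranial mesoderm and neural crest, had 219 and 155 reads in EpiLSC, against 14 and 8 reads in nESC. The normalized counts were 177 and 211 in EpiLSC and 10.97 and 9.13 in nESC. Both EpiLSC libraries lay 16.1-fold or more above both nESC libraries, and the EpiLSC libraries differed by only 1.19-fold. The log2 fold change was 4.26 (SE 0.79, 95% interval 2.71 to 5.82, adjusted p 2.73e-06, DESeq2 Wald test) in the authors' deposited table.

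Twist2 (ENSMUSG00000007805.4), known from dermis, had 7 reads in each EpiLSC library and 0 in both nESC libraries. These were 5.65 and 9.52 normalized counts, at least 4.06-fold and 6.83-fold higher than a floor of 3 reads over both nESC libraries. The test did not pass (log2 fold change 5.44, SE 2.69, unadjusted p 0.0433, adjusted p 0.208, DESeq2 Wald test) in the authors' deposited table.

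**Figure D2:**
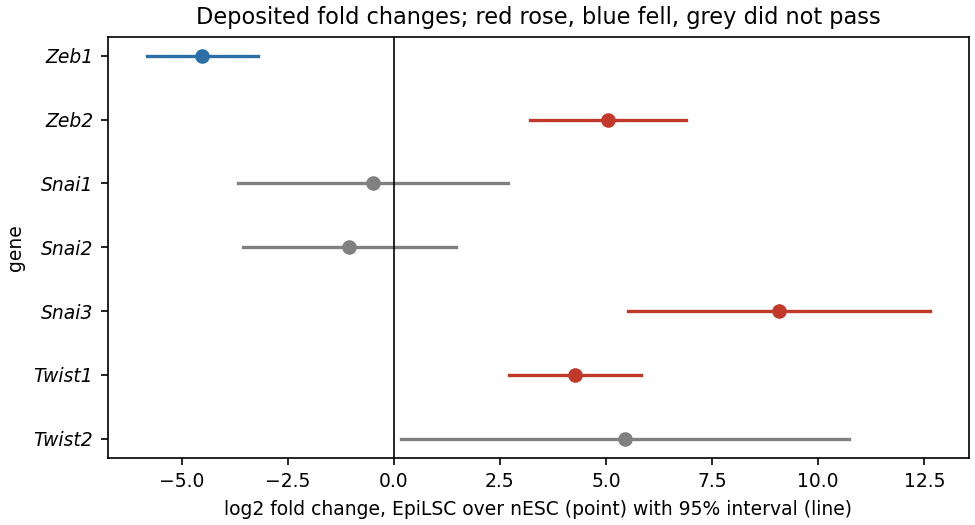
Log2 fold changes of the authors' deposited table, EpiLSC over nESC (horizontal axis), for the 7 genes, with lines for the 95% intervals. The interval of Zeb1 (-5.82 to -3.20) lies below 0, and those of Zeb2, Snai3 and Twist1 lie above it. The grey genes did not pass after adjustment, although the interval of Twist2 (0.164 to 10.7) also lies above 0.

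Levels of the 7 genes were ranked per kilobase of merged exons. The sums given above for the Zeb and Snail genes were not divided by length. In EpiLSC the order was Twist1 (119 normalized counts per kilobase), Snai3 (57.5), Zeb2 (28.1), Zeb1 (4.80), Snai1 (4.33), Snai2 (3.88) and Twist2 (2.39). Twist1, at 109 and 130 per kilobase in the EpiLSC libraries, lay above every other member in both. Snai3 (95.7 and 19.2) and Zeb2 (8.26 and 47.9) did not differ beyond the spread between their libraries, nor did Zeb1 (4.17 and 5.43) from Snai1 (6.97 and 1.68) or Snai1 from Snai2 (4.40 and 3.37). Zeb2 lay above Zeb1 in both EpiLSC libraries, and Snai2 above Twist2 (1.78 and 3.00). In nESC, Zeb1 led with 125 and 92.8 per kilobase. Snai2 (9.31 and 6.78), Twist1 (6.74 and 5.61) and Snai1 (10.2 and 2.11) followed. Twist1 and Snai1 overlapped, and the lower library of Snai2 lay only just above the higher one of Twist1. Zeb2 came last among those detected, at 1.06 and 0.63. The naive state was thus led by a single member, and the EpiLSC state by Twist1, Snai3 and Zeb2. In EpiLSC library a, however, Zeb2 (8.26) lay only just above Snai1 (6.97). The levels were not corrected for the GC content of transcripts, with which the libraries differed (below).

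The pathway was read from lists chosen with earlier results of these data known, and the counts are therefore descriptions. Over all tested genes 7.67% rose and 6.23% fell, and the median log2 fold change was 0.02, in the authors' deposited table. Of 47 tested epithelial genes, which are known targets of these repressors or partners of the epithelial state, 18 rose and 2 fell, with a median of 1.49 in the authors' deposited table. Esrp1, a splicing factor of epithelia, had 3942 and 2983 normalized counts in EpiLSC and 14.9 and 70.8 in nESC, and rose by 6.35 (SE 0.83) in log2 units of the authors' deposited table. Cldn6, which encodes a tight junction protein, had 2100 and 1005 normalized counts in EpiLSC and 25.1 and 78.8 in nESC, a rise of 4.91 (SE 0.80) in the authors' deposited table. The authors' deposited table gives the adhesion gene Epcam a rise of 3.07 (SE 0.64), and Cdh1 a value of 0.13 (SE 0.63, adjusted p 0.982, DESeq2 Wald test) that did not pass. The falls were those of Grhl3 (-4.26, SE 0.82) and Elf3 (-3.57, SE 0.85), which encode epithelial transcription factors, in the authors' deposited table.

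The E-box letters CAGGTG and their reverse complement CACCTG, which ZEB and Snail proteins are known to bind, were searched on both strands from 250 bases before to 50 after each start in RefSeq (GRCm38.p6). Of 36 windows for 28 epithelial genes 69.4% held at least 1 match, and of 18 windows for 12 epithelial genes that rose 72.2% did. Among all 32851 windows of 27025 genes the share was 20.2%. Since the list holds known targets, the difference in share is partly fixed by its choice, and no test was made. Among 7 windows of 4 members only that of Snai1, at chr2:167537945-167538244 on the plus strand, held a match. It is shown with the windows of 3 epithelial genes that rose and hold 2 matches each, Epcam at chr17:87635729-87636028, Cldn6 at chr17:23679115-23679414 and Cldn7 at chr11:69965171-69965470, all on the plus strand and with the matches in capitals.
Snai1: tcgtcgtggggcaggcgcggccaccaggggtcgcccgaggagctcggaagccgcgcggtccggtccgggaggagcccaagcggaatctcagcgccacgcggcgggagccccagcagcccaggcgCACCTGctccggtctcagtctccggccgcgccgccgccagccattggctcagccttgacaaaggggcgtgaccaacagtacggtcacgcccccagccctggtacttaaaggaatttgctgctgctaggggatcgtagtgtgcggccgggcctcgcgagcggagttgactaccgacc
Epcam: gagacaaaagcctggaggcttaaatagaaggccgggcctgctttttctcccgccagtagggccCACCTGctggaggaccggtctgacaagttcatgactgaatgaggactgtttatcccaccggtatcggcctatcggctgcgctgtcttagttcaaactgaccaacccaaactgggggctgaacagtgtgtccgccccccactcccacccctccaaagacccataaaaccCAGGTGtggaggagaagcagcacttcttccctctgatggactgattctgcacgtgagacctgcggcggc
Cldn6: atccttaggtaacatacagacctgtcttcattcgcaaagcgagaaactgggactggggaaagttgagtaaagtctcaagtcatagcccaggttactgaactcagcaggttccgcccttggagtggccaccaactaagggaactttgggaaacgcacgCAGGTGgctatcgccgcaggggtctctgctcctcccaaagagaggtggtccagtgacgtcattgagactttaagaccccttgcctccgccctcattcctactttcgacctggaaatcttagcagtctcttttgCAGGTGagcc
Cldn7: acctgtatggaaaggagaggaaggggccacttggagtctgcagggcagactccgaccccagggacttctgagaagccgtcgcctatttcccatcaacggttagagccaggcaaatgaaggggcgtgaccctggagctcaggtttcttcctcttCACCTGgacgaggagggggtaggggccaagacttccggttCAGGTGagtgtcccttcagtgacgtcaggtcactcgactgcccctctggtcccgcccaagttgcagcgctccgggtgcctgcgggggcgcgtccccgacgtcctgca
These letters describe the windows and do not show binding. A second window of Cldn7, at chr11:69964529-69964828, held 0 matches. Windows from different starts of a gene were each counted in the shares, also where they overlapped.

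Of 30 tested mesenchymal genes 10 rose and 5 fell, beside 7.67% risen and 6.23% fallen over all tested genes. Their median log2 fold change was 1.69 in the authors' deposited table and 0.72 among those with a mean of 100 or more. Tagln, which encodes an actin-binding protein of smooth muscle, had 1336 and 99.3 normalized counts in EpiLSC and 1.57 and 1.14 in nESC (log2 fold change 9.03, SE 1.35, in the authors' deposited table). The authors' deposited table gives a rise of 5.42 (SE 0.98) for Ccn1, a matricellular gene. Tgfbi (-3.80, SE 0.80), which encodes a matrix protein, and Vim (-2.79, SE 0.66), which encodes an intermediate filament, were both called as fallen in the authors' deposited table. Per the authors' deposited table, Fn1, the fibronectin gene, fell by 3.64 (SE 1.05), and Cdh2, which encodes N-cadherin, did not pass at 0.72 (SE 0.70). Among genes whose mean was 100 or more, 4 mesenchymal genes rose and 4 fell, and against a 2-fold change 8 rose and 1 fell.

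**Figure D3:**
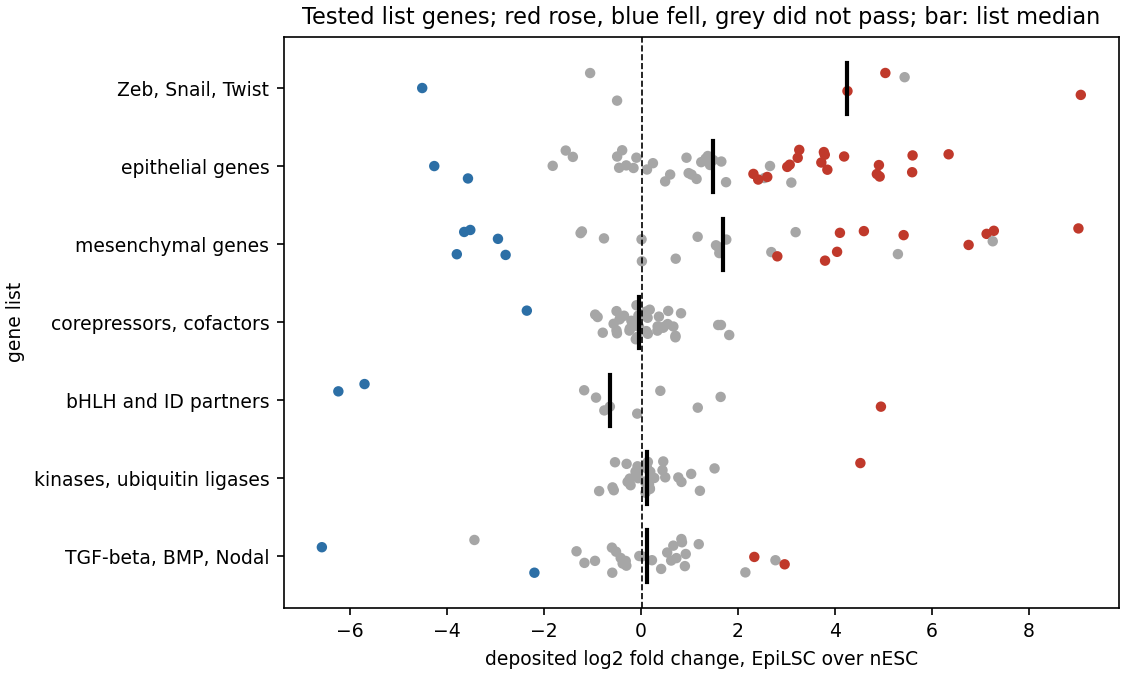
Log2 fold changes of the authors' deposited table, EpiLSC over nESC (horizontal axis), for the tested genes of the members and 6 lists (vertical axis; points spread within a list for sight only), with a black bar at each list's median and a dashed line at the median of all tested genes. The epithelial list has 18 genes in red and 2 in blue, whereas the cofactor and kinase lists sit around 0 with 1 call each.

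Genes whose products work with these factors were read against the 13.9% of all tested genes that were called. Of 42 corepressors and cofactors of ZEB and Snail proteins 0 rose and 1 fell, the acetyltransferase gene Kat2b (-2.35, SE 0.72), with a list median of -0.04, in the authors' deposited table. Of 34 kinases and ubiquitin ligases that act on Snail and Twist proteins 1 rose, the protein kinase D gene Prkd1 (4.53, SE 0.86), and 0 fell, with a list median of 0.13, in the authors' deposited table. Of 11 tested bHLH and ID genes, whose products dimerize with or sequester Twist partners, 1 rose and 2 fell, with a median of -0.64 in the authors' deposited table. Id2, which encodes an inhibitor of bHLH dimers, had 212 normalized counts in both EpiLSC libraries and 7.84 and 5.71 in nESC, a rise of 4.95 (SE 0.82) in the authors' deposited table. The authors' deposited table lists falls for its relative Id4 (-5.70, SE 0.77) and the bHLH gene Msc (-6.24, SE 1.22).

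TGF-beta, BMP and Nodal signalling is known to induce these factors. Of 30 tested ligands, receptors, SMAD effectors and inhibitors of it, 2 rose and 2 fell, a count near the 13.9% called over all tested genes. Their median was 0.13 in the authors' deposited table. Against a 2-fold change, 0 of them rose and 1 fell. The BMP receptor gene Bmpr1b (2.97, SE 0.81) and Skil (2.34, SE 0.70), which encodes a SMAD corepressor, rose in the authors' deposited table. Falls in the authors' deposited table were those of the BMP effector gene Smad9 (-6.58, SE 1.00) and the ligand gene Bmp4 (-2.20, SE 0.76). Activin A was part of the EpiLSC medium.

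Genes beside the members in the RefSeq order of protein-coding genes were set next to them. Hdac9, which encodes a histone deacetylase and lies next to Twist1, had 157 and 326 normalized counts in EpiLSC and 6.27 and 3.42 in nESC. The authors' deposited table gives a rise of 5.61 (SE 0.91, adjusted p 3.40e-08, DESeq2 Wald test), and its states did not overlap. Efcab1 beside Snai2 rose by 2.73 (SE 0.99, adjusted p 0.0436, DESeq2 Wald test) in the authors' deposited table, while Snai2 itself did not pass. The neighbours of Zeb1 (Zfp438 at -0.12, SE 0.74, and Arhgap12 at 0.14, SE 0.66) and of Zeb2 (Gtdc1 at 1.12, SE 0.64, and Acvr2a at 0.73, SE 0.69) were not called in the authors' deposited table. The authors' deposited table also gave no call to Mvd (1.52, SE 1.29) and Rnf166 (0.51, SE 0.96) beside Snai3. Nor did it call Rnf114 (-0.65, SE 0.62) and Ube2v1 (0.47, SE 1.06) beside Snai1. Asb1 (-0.23, SE 0.74) and Hdac4 (-0.14, SE 0.78) beside Twist2 were likewise not called. The remaining neighbours of Snai2 and Twist1 were not found among the compared genes.

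The tested genes nearest to each called member in the plane of log2 mean and log2 fold change of the authors' deposited table were found as its closest matches in that comparison. They were Ttc28 and Sall3 for Zeb1 (distances 0.302 and 0.317 log2 units), Vash2 and Aif1l for Zeb2 (0.132 and 0.177), 5330434G04Rik and Cr2 for Snai3 (0.0797 and 0.161), and Cpne8 and Nell2 for Twist1 (0.104 and 0.115). With 4 libraries such nearness rests on 2 numbers per gene.

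Markers of other cell types were read beside the members, and against the 7.67% of all tested genes that rose and the 6.23% that fell. Of 14 fibroblast and feeder markers other than Twist1, 11 were in the table, and of 7 tested 3 rose (Mmp2, Thy1 and Dcn) and 0 fell, with a median of 2.69 in the authors' deposited table. The 11 together reached 610 and 382 normalized counts in EpiLSC and 179 and 163 in nESC. The other tested markers, Col1a1, Col1a2, Pdgfra and Pdgfrb, did not pass, and Pdgfra (-2.38, SE 1.03) and Pdgfrb (-1.24, SE 1.00) were negative in the authors' deposited table. The untested ones had few reads: Col3a1 had 0 and 14.96 normalized counts in EpiLSC, Postn 0 and 4.08 and Prrx1 2.42 and 8.16, with 0 reads of each in nESC, and Lum had 0 and 2.72 in EpiLSC and 0.78 and 1.14 in nESC. The part of Mmp2, Thy1 and Dcn in the rises of Zeb2, Snai3 and Twist1 was not tested.

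Of 9 tested primitive streak and early mesoderm markers 3 rose (Wnt3, Eomes and Mixl1) and 1 fell (Kdr), with a median of 2.40 in the authors' deposited table. The list summed to 1347 and 4344 normalized counts in EpiLSC and 629 and 923 in nESC. Eomes, a T-box gene of the streak, was named here after its values were seen. It had 744 and 3091 normalized counts in EpiLSC and 325 and 98.2 in nESC. T, which encodes brachyury, had 103 and 790 in EpiLSC and 150 and 728 in nESC and was not called (0.02, SE 1.04) in the authors' deposited table. Of 11 endoderm markers 3 rose (Foxa2, Col4a1 and Dab2) and 2 fell (Hnf4a at -7.87, SE 1.82, and Lama1 at -5.58, SE 0.69). The authors' deposited table gave them a median of 0.97, and of -1.22 over the 3 with a mean of 100 or more. Levels from the mean and the fold change, summed over the endoderm list, were 2508 in EpiLSC and 9681 in nESC. Of 9 neural crest and neuroectoderm markers 2 rose (Nes and Ets1) and 1 fell (Tfap2a at -3.75, SE 1.26). Their median was 2.22 in the authors' deposited table. The part of these markers in the results was not tested. For the labelled states themselves, 13 of 13 naive markers fell and 11 of 14 formative epiblast markers rose in the authors' deposited table, and the direction had been read from 4 of these genes.

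The GC content of transcripts moved with the difference between the 2 libraries of a state. Over 7166 rebuilt protein-coding genes split by GC into 5 bands of equal size, the median log2 ratio of library b to library a in EpiLSC was 0.69 in the band lowest in GC, then 0.14, -0.62, -1.43 and -2.47 in the highest. In nESC the medians were 0.45, 0.22, -0.17, -0.67 and -1.51. These ratios are of normalized counts plus 1, over genes with a sum of 20 or more in the state. In both states library b thus held less of the GC-rich genes than library a.

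Members were set against their GC bands. Snai3 (GC 59.2%) had a log2 ratio of -2.28 between EpiLSC libraries b and a, close to the median of -2.48 for its band, and Snai1 (59.8%) had -1.73 in EpiLSC and -1.98 in nESC. Zeb2 (43.9%) had 2.53, above the median of 0.69 for its band, and 5.53% of 1121 genes of that band were as high or higher. Twist1 (59.3%) had 0.25, and only 2.26% of 1237 genes of its band were as high or higher. In EpiLSC the ratio of Snai3 thus lay near the median of its band, with 44.9% of 1237 genes as high or higher. Those of Zeb2 and Twist1 lay above the medians of theirs. The part of GC in these differences between libraries was not tested. Of 40 rebuilt epithelial genes, whose median GC was 55.6%, 4 were higher in EpiLSC library b, against 2575 of 6876 rebuilt tested genes. The epithelial genes had a median log2 ratio of -1.98, and the band that holds a GC of 55.6% had -1.43. The part of GC in the differences between the states was not tested.

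**Figure D4:**
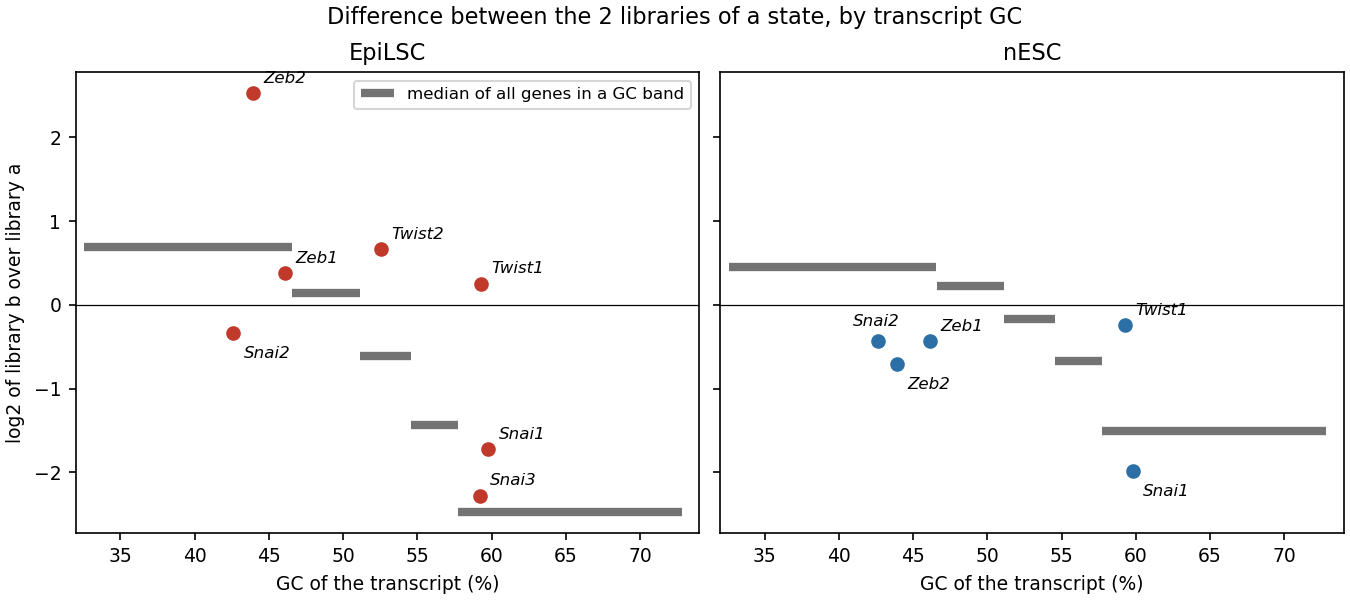
Log2 ratio of library b to library a (vertical axis) against transcript GC in percent (horizontal axis), for EpiLSC at left and nESC at right, with grey bars at the median of all genes in each GC band and points for the members that have reads in that state. Snai3 lies near its bar in EpiLSC at -2.28, whereas Zeb2 at 2.53 and Twist1 at 0.25 lie above theirs.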

How the data were processed

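RNA was measured in 4 samples, 2 EpiLSC and 2 nESC. The submitters' processing notes name TopHat2, HTSeq, DESeq2 1.8.2 and the build mm9, with no annotation, strand setting or other version given in the sources used here. The authors deposited a comparison table. Its mean normalized count is a signal: counts that the authors divided by size factors and averaged. Its log2 fold changes, standard errors, Wald scores and p-values, with adjusted p-values for 16361 of 20296 genes, were deposited as DESeq2 gives them, per the file headers. The other 3935 genes, with means of up to 3.74, had no adjusted p-value and are called untested here.

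No new test of single genes was made for the calls. The 95% intervals use the deposited standard error and the normal distribution. Whole reads per library were rebuilt from the digits of the means within a relative window of 1e-14, in a procedure tested on simulated data. For 128 list genes with means over 400 and up to 5000, the deposited ratio, within 0.05, was used as well, and 68 gave a single solution. limma 3.58.1 (R 4.3.3) was run on log2(normalized rebuilt reads + 1) of 8826 genes as an alternative chosen after seeing the data. Leave-one-out fits with limma left 1 sample in a state, which was assumed to vary like the other state. Gene names, lengths, GC and 3′ UTRs came from GENCODE M21 (GRCm38), with names for 20167 of 20296 IDs. Tables were handled with Python 3.11.15 and pandas 2.3.3. The alternatives were no filter, means of 100 or more, a test against a 2-fold change and a threshold of 0.01.

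The members and the 14 lists were chosen with earlier results of these data known. Named genes were all members, the 2 called genes per pathway list and direction that had the smallest p, Cdh1, Epcam, Vim, Cdh2, Fn1, the 2 tested genes nearest to each called member, and Fgf5, Otx2, Zfp42 and Klf4. Neighbours of members, Zeb2os, Cldn7 and markers of other cell types were named after their values were seen.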

Additional observations from a re-analysis of the deposited data

How the results depend on the processing

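No paired analysis was possible because the table gives no line or replicate number for any library. The planned comparisons without a line could not be run for the same reason, and rebuilt libraries were left out instead. The calls of Zeb1, Zeb2, Snai3 and Twist1 held with no filter, against a 2-fold change, at a threshold of 0.01 and with limma on all 4 libraries (adjusted p of 0.0228, 0.0489, 0.0246 and 0.0248). They also held among means of 100 or more, except that Snai3 was not tested there. Leaving out each library with limma gave adjusted p of 0.125 to 0.231 for Zeb1, 0.139 to 0.344 for Zeb2, 0.0419 to 0.251 for Snai3, 0.140 to 0.232 for Twist1 and 0.0324 to 0.231 for Twist2. In 3 of these 4 fits 0 of 8826 genes were called, so they say nothing about stability. The log2 differences were -4.69 to -4.26 for Zeb1, 3.26 to 5.79 for Zeb2 and 5.01 to 7.29 for Snai3. They were 4.01 to 4.27 for Twist1, 2.73 to 3.40 for Twist2 and -1.17 to -0.74 for Snai2. Because the libraries of the 2 states did not overlap for these genes, leaving out 1 could not change the sign. Snai1, whose libraries overlapped, spanned -1.37 to 0.61. Without EpiLSC library b, 197 genes rose and 2 fell, among them Snai3 and Twist2. Over all genes, 636 rose and 615 fell among means of 100 or more, and 628 rose and 502 fell against a 2-fold change, where fewer genes or larger changes are asked for. Of mesenchymal genes, 4 rose and 4 fell among means of 100 or more, and 8 rose and 1 fell against a 2-fold change. Of the TGF-beta, BMP and Nodal genes 0 rose and 1 fell against a 2-fold change. The endoderm median turned to -1.22 among means of 100 or more. In all, 15 member values lost and 1 gained the threshold, all on leaving out a library. Snai1, Snai2 and Twist2 had 2 to 24 reads wherever they were detected, and the part of depth in their missing calls was not tested.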
